A study of Homo sapiens with 4 samples.

Results

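The NRF2 pathway was described here through 10 genes: the transcription factor NRF2 (gene NFE2L2), its inhibitor KEAP1, and 8 antioxidant genes known as NRF2 targets, namely GCLC, GCLM, TXN, TXNRD1, SRXN1, HMOX1, NQO1 and OSGIN1. The members were picked by gene symbol, and all 10 were found among the 19749 symbols of the authors' deposited table and had an adjusted p-value in it. The cells were U87, a human glioblastoma line, cultured for 24 h with the small molecule YZ129 at 5 µM (n = 2 libraries) or with the vehicle DMSO (n = 2 libraries). The series title ties YZ129 to a pathway of HSP90, calcineurin and NFAT. Whether both libraries of a group were grown as independent cultures is not stated, so p-values reflect the variation between libraries, which may be technical. The authors' mean level covers 8 libraries, and whether the other 4 also entered the standard errors and p-values is not known.

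NRF2 is a transcription factor that is made continuously and, in unstressed cells, held by KEAP1 and handed to a CUL3 ubiquitin ligase for destruction. Oxidants and electrophiles modify cysteines of KEAP1, NRF2 then accumulates, pairs with a small MAF protein and binds antioxidant response elements near genes for glutathione synthesis, the thioredoxin system, heme breakdown and quinone reduction. Because this control acts mainly on the NRF2 protein, its activity is commonly read from the messenger RNA of its targets. Several targets also answer to other factors, and HMOX1 is known to be induced by heme and, in some cell types or species, by heat shock or hypoxia.

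Only results of the comparison were analysed here, with no value per library, so each gene is given by its log2 fold change ± standard error (SE) and not by the values of single samples. A positive change is read as higher with YZ129. The table does not state this direction, and its name has DMSO before YZ129. The reading rests on genes that heat shock factor 1, known to be released when HSP90 is inhibited, drives: HSPA6 stood at 2.64 ± 0.23, BAG3 at 0.99 ± 0.14 and HSPH1 at 0.88 ± 0.14 in the authors' deposited table. Under the opposite reading every rise becomes a fall of the same size, with the same p-value.

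One member, OSGIN1, rose with YZ129, and the other 9 did not pass an adjusted p of 0.05. That is 10.0% of the members, against 12.9% of the 14812 tested genes in either direction and 5.24% in the upward direction. Among tested genes at 1000 normalized counts or more on average (the mean level), where all 10 members lie, 13.9% passed. The share called among the members is thus near the background. The median change of the members was 0.05, beside -0.05 for all tested genes and -0.11 for those at a mean level of 1000 or more. Of the 8 targets 5 were positive and 3 negative in sign.

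Promoters of members that hold a match to a searched motif are shown first. Antioxidant response elements are the textbook link between NRF2 and its targets. The OSGIN1 promoter held no match to the core searched for them, TGACNNNGC, which allows only a C after TGA. Promoter sequences (250 bases before to 50 after a start site) came from RefSeq on GRCh38.p14, and 9 of the 10 members matched, with 12 promoters; HMOX1 had no entry. OSGIN1, the member that rose, had 1 promoter in this set. The gene span begins at chr16:83948282, so the window lies inside the gene, and no other OSGIN1 start was searched. This promoter, on the plus strand at chr16:83952990-83953289, is printed whole. Its capitals mark overlapping matches to the AP-1 motif TGACTCA and, on the opposite strand, to the MAF-type motif TGANTCAGC, 99 to 91 bases upstream of the start:
OSGIN1: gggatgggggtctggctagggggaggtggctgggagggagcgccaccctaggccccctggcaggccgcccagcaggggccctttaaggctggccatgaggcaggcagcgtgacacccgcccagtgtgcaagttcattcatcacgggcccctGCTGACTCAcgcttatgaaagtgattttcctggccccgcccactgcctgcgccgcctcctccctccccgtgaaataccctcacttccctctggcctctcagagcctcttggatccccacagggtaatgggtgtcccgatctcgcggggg

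Matches to the core of the antioxidant response element, TGACNNNGC on either strand, were found in promoters of 3 of the 9 members: GCLM, TXNRD1 and KEAP1. The 3 windows below, of 30 bases each and read along the motif's strand, hold a longer form, the core followed by an A, with the match in capitals. They come from the plus strand of chr1:93909446-93909475 (GCLM), the minus strand of chr12:104286919-104286948 (the downstream of 2 TXNRD1 starts) and the plus strand of chr19:10502784-10502813 (one of 2 KEAP1 starts), all GRCh38.p14:
GCLM: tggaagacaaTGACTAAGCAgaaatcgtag
TXNRD1: agagtcagaaTGACAAAGCAgaaatccact
KEAP1: caggtcaccaTGACTAAGCAgagccgggcg

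Counted by promoter, 4 of the 12 of the members held the core motif, 3 the longer form, 1 the AP-1 motif and 1 the MAF-type motif. Of all 35116 promoters of this length 13.3% held the core motif and 3.18% the longer form, and 4.95% held the AP-1 motif and 1.36% the MAF-type motif. The MAF-type motif was searched after the results had been seen. These matches are a description of letters in short windows and do not show binding. The genes with a longer match had changes of both signs in the authors' deposited table, from -0.46 for GCLM to 0.26 for TXNRD1. The OSGIN1 promoter held the AP-1 and MAF-type letters and no match to TGACNNNGC.

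The regulators themselves stood close to 0. NFE2L2 (chr2:177227595-177392697, minus strand; gene positions are GENCODE 29 on GRCh38) was at 0.09 ± 0.14 in the authors' deposited table, with a 95% interval of -0.18 to 0.37 (adjusted p = 0.738). KEAP1 (chr19:10486120-10503741, minus strand) was at -0.05 ± 0.15 in the authors' deposited table, with an interval of -0.33 to 0.24 (adjusted p = 0.877), and its sign turns when changes are centred. At these standard errors a change of 0.38 in size for NFE2L2 and of 0.40 for KEAP1 would have passed. Smaller estimates would not have passed as deposited, which sets no limit on the true change. The amount of either protein was not measured.

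The 2 subunits of glutamate cysteine ligase, which makes the rate-limiting step of glutathione synthesis, had different values. GCLC, the catalytic subunit (chr6:53497341-53616970, minus strand), stood at 0.01 ± 0.15 in the authors' deposited table (95% interval -0.28 to 0.30, adjusted p = 0.982). GCLM, the modifier subunit (chr1:93885205-93909456, minus strand), stood at -0.46 ± 0.19 in the authors' deposited table, or 1.38-fold lower (interval -0.85 to -0.08), and did not pass (adjusted p = 0.0982; unadjusted p = 0.017). GCLM had the lowest value of the 10 members, and 9.61% of tested genes had a lower one. Its standard error was also the largest among the members: 11.1% of the 7377 tested genes at a mean level of 1000 or more had one as large. The intervals of both subunits overlap, and their difference was not tested.

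No member of the thioredoxin system passed. TXN, the small disulfide-reducing protein thioredoxin (chr9:110243811-110256640, minus strand), stood at -0.04 ± 0.15 in the authors' deposited table (interval -0.33 to 0.24, adjusted p = 0.894); its sign turns when changes are centred. TXNRD1, the selenoenzyme that reduces thioredoxin with NADPH (chr12:104215779-104350305, plus strand), stood at 0.26 ± 0.13 in the authors' deposited table, or 1.20-fold higher, with an interval from -0.003 to 0.52 and an adjusted p of 0.208. SRXN1, sulfiredoxin, which repairs overoxidized peroxiredoxins (chr20:646615-653370, minus strand), stood at 0.35 ± 0.14 in the authors' deposited table, or 1.27-fold higher (interval 0.07 to 0.62, adjusted p = 0.0813). Neither TXNRD1 nor SRXN1 passed. SRXN1 was short of the change of 0.38 that its standard error would have needed.

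HMOX1, heme oxygenase 1, which opens the heme ring and frees iron and biliverdin (chr22:35380361-35394214, plus strand), stood at 0.38 ± 0.15 in the authors' deposited table. This is 1.30-fold higher with an interval of 0.08 to 0.68, and it did not pass (adjusted p = 0.0759; unadjusted p = 0.0118). A change of 0.41 would have passed. NQO1, the quinone reductase that is a widely used readout of NRF2 activity (chr16:69706996-69726951, minus strand), stood at -0.14 ± 0.14 in the authors' deposited table (interval -0.42 to 0.14, adjusted p = 0.587). This interval leaves out a rise of more than 1.10-fold, a bound that holds only for the deposited 0. Relative to genes of the same level NQO1 was at 0.016, so its sign turns and the bound lies higher.

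OSGIN1, oxidative stress induced growth inhibitor 1 (chr16:83948282-83966332, plus strand), rose 1.59-fold (0.67 ± 0.17, interval 0.34 to 1.00) in the authors' deposited table, with an adjusted p of 0.00156. Of the 776 genes that rose it was number 470 by size of change. Its interval overlaps those of HMOX1, SRXN1, TXNRD1 and NFE2L2, and lies above those of GCLC, KEAP1, TXN, NQO1 and GCLM. Differences between members were not tested.

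**Figure D1:**
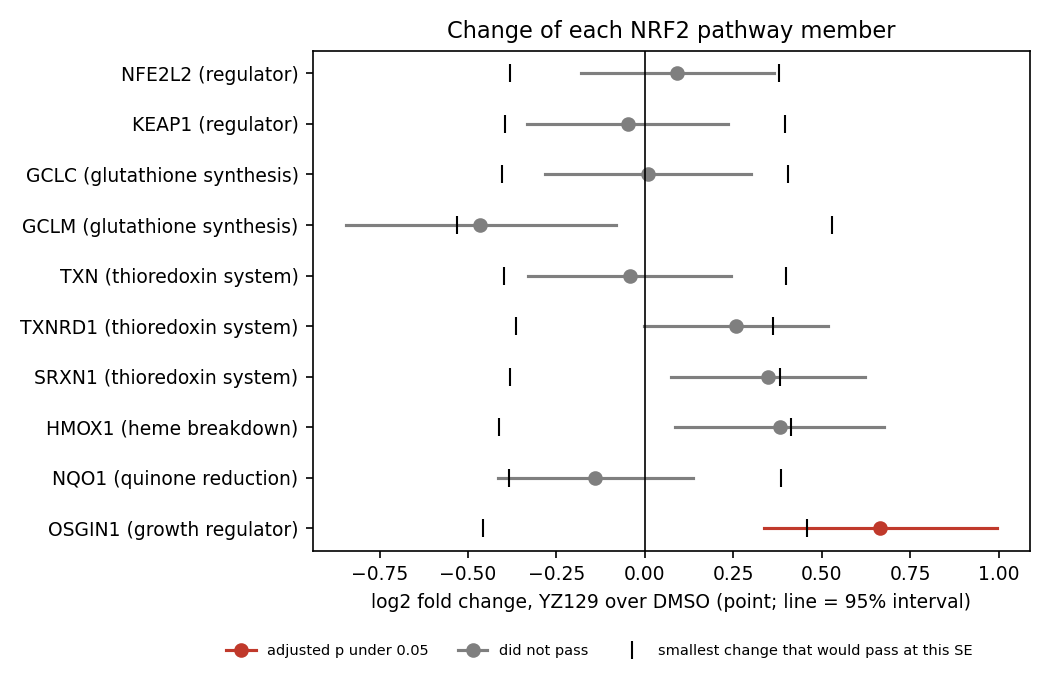
Change of each of the 10 members in the comparison of YZ129 with DMSO. The x axis is the log2 fold change, points are the deposited values, lines their 95% intervals, red the member that passed, and black ticks the smallest change that would have passed at that member's SE. OSGIN1 at 0.67 lies beyond its tick, while HMOX1 at 0.38, SRXN1 at 0.35 and GCLM at -0.46 lie just short of theirs.

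The members were well-expressed genes. Mean levels ran from 1577 normalized counts for OSGIN1 to 59560 for HMOX1 in the authors' deposited table. These means have no spread over samples and are not the level in either group. On a per-length scale, dividing by the length of the longest principal GENCODE 29 transcript, HMOX1 was highest at 32689 per kb, followed by TXN at 15049 and TXNRD1 at 9936. NQO1 had 4462, SRXN1 2778, NFE2L2 2137 and KEAP1 1401 per kb. GCLC at 835, GCLM at 757 and OSGIN1 at 707 per kb were the lowest, so the member that rose had the lowest mean per length. The order of neighbours cannot be tested without values per library, and the gene models used in counting are not stated in the sources used here.

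**Figure D2:**
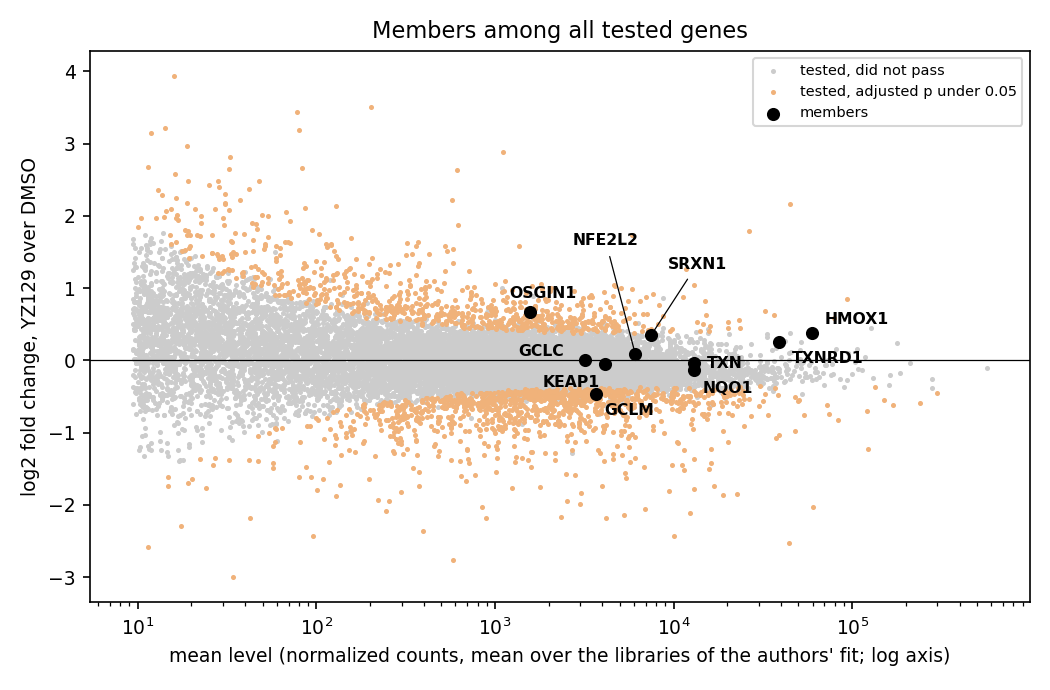
All 14812 tested genes by mean level (x axis, normalized counts, log scale) and log2 fold change (y axis), with genes that passed in orange and the 10 members in black. The members lie between mean levels of 1577 and 59560, and HMOX1 and TXNRD1 stand above most genes of similar level.

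How many members passed depended on where 0 was set. The deposited changes drifted with the level: the median was -0.16 among the decile of tested genes with the highest levels, which holds 5 of the members, a shift of over 0.1 from 0. Relative to the median of genes in the same decile of mean level, HMOX1 was at 0.54 (adjusted p = 0.00617), SRXN1 at 0.50 (adjusted p = 0.00532) and TXNRD1 at 0.41 (adjusted p = 0.0215), and with OSGIN1 at 0.77 (adjusted p = 0.000159) 4 of 10 members were higher, beside 6.21% of all tested genes. In those terms HMOX1 lay above 97.1% of the genes of its level, SRXN1 above 96.4% and TXNRD1 above 94.8%. Relative to the median of all tested genes, 3 of 10 were higher (HMOX1, SRXN1 and OSGIN1), beside 6.44%. The share of rises among all calls moved as well, from 776 rises and 1132 falls as deposited to 954 and 884 relative to the median of all tested genes, and to 920 and 805 relative to genes of the same level. GCLM was below 0, and did not pass, under each of these settings.

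**Figure D3:**
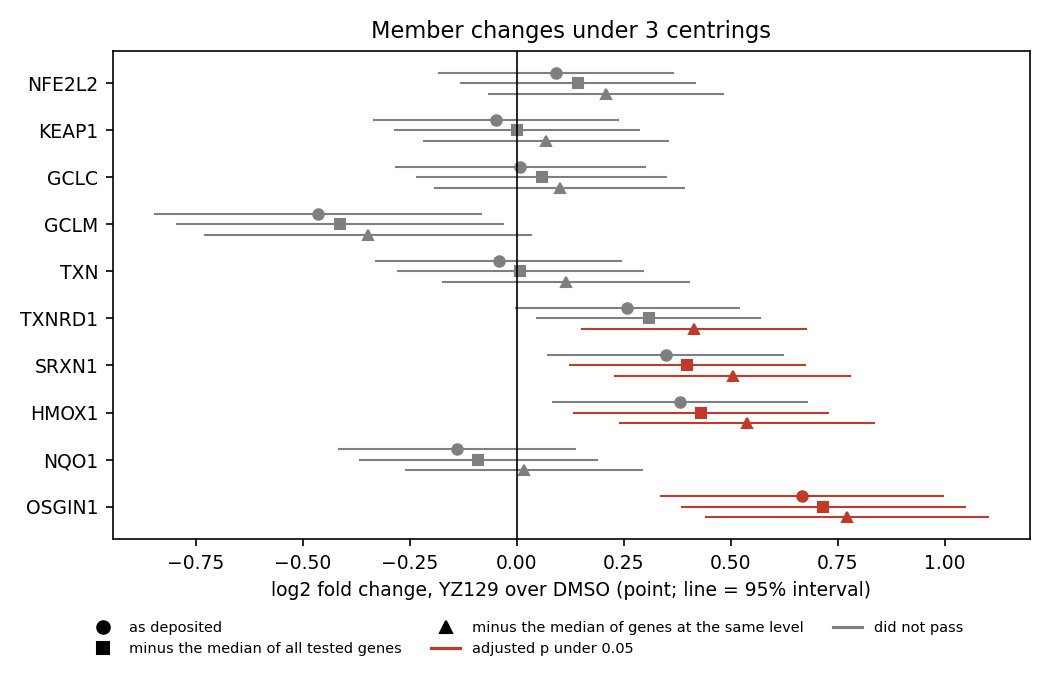
Log2 fold change (x axis) of the 10 members as deposited (circles), minus the median of all tested genes (squares) and minus the median of genes in the same decile of mean level (triangles), with 95% intervals; red marks an adjusted p under 0.05. OSGIN1 is red in each case, HMOX1 and SRXN1 in both centred cases, and TXNRD1 when set against genes of its level, at 0.41.

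The genes around the members were taken from 8 lists with 156 tested genes other than the members. Of these 7 rose, 27 fell and 122 did not pass. The falls made up 17.3% of them, beside 7.64% of all tested genes, and the rises 4.49%, beside 5.24%. Their median was -0.17, beside -0.05 for all tested genes. At a mean level of 1000 or more, 19.6% of 107 of these genes fell, beside 10.1% of all tested genes of that level. The medians there were -0.16 and -0.11. Relative to the median of all tested genes 19 of the 156 fell, beside 5.97% of all tested genes. Relative to genes of the same level 16 fell, beside 5.43%. The rises were 9 under either centring, beside 6.44% and 6.21%.

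Among genes that control NRF2, the small MAF partners MAFG and MAFK rose, while the related MAFF (0.28 ± 0.14, adjusted p = 0.183 in the authors' deposited table) did not pass, except relative to genes of its level (adjusted p = 0.0413). Of 25 tested genes 3 rose, 2 fell and 20 did not pass, with a median of -0.01. Among all tested genes 5.24% rose and 7.64% fell. MAFG rose 1.51-fold (0.59 ± 0.14, adjusted p = 0.000465) and MAFK 1.53-fold (0.61 ± 0.15, adjusted p = 0.00101) in the authors' deposited table; their proteins pair with NRF2, and also with the repressor BACH1, on DNA. The acetyltransferase CREBBP, a coactivator of NRF2 among many factors, rose too (0.61 ± 0.16) in the authors' deposited table. RBX1, the RING subunit of cullin ligases, fell (-0.44 ± 0.14), as did the kinase FYN (-0.71 ± 0.14), in the authors' deposited table; the RBX1 call was lost under both centrings (adjusted p = 0.0552 and 0.125). In the authors' deposited table CUL3 (-0.05 ± 0.15), BACH1 (0.13 ± 0.21) and the autophagy adaptor SQSTM1, which binds KEAP1 (0.10 ± 0.14), did not pass; these were named after their values were seen.

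Of the nearest relatives of the members, 1 of 9 rose and 0 fell by the authors' test, whose columns are those of DESeq2. That is 11.1% called, near the 12.9% of all tested genes. At an unadjusted p of 0.05, which 24.9% of all tested genes met, the counts were 1 and 2. NFE2L3, a transcription factor related to NRF2, rose 2.16-fold (1.11 ± 0.29, adjusted p = 0.00227) in the authors' deposited table from a low mean level of 79.4. In the authors' deposited table neither NFE2L1 (-0.31 ± 0.14), which is abundant, nor NFE2 (0.12 ± 0.64), which is scarce, passed. HMOX2, the constitutive heme oxygenase (-0.03 ± 0.19), and OSGIN2 (-0.09 ± 0.21) were close to 0 in the authors' deposited table. NQO2 (-0.27 ± 0.16), the mitochondrial TXN2 (-0.23 ± 0.16) and TXNRD2 (0.06 ± 0.16), and TXNRD3 (-0.52 ± 0.25) did not pass either in the authors' deposited table.

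Glutathione genes had 1 rise and 3 falls among 35, or 11.4% called, near the 12.9% of all tested genes. Their median was -0.21. SLC3A2, the heavy chain that the cystine importer shares with other amino acid transporters, rose 1.54-fold (0.62 ± 0.15) in the authors' deposited table. CHAC1, which breaks glutathione down, fell 2.06-fold (-1.04 ± 0.19), in the authors' deposited table. GSTA4, a transferase for lipid aldehydes (-0.89 ± 0.23), and the glutaredoxin GLRX (-0.52 ± 0.14) also fell in the authors' deposited table. Glutathione reductase GSR, named after its value was seen, was at -0.38 ± 0.14 and did not pass (adjusted p = 0.0584) in the authors' deposited table.

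Thioredoxin relatives and peroxide-removing enzymes gave 2 falls among 24 and 0 rises by the authors' test (3 and 0 at an unadjusted p of 0.05), with a median of -0.18. The share of falls, 8.33%, was near the 7.64% of all tested genes. Catalase, CAT (-0.47 ± 0.14), and the methionine sulfoxide reductase MSRB1 (-0.53 ± 0.19) fell in the authors' deposited table. Relative to genes of the same level neither passed.

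Of 16 heme and iron genes 4 fell and 1 rose, 31.2% called, beside 12.9% of all tested genes. The biliverdin reductase BLVRA, which takes the product of heme oxygenase onward to bilirubin, fell (-0.52 ± 0.16) in the authors' deposited table. The porphyrin transporter ABCB6 (-0.75 ± 0.17) and FECH, which inserts iron into heme (-0.44 ± 0.16), also fell in the authors' deposited table. ALAS1, the first enzyme of heme synthesis, rose (0.46 ± 0.15) in the authors' deposited table. The ferritin genes FTH1 (-0.10 ± 0.18) and FTL (0.15 ± 0.16), named after their values were seen, did not pass by the authors' deposited table. At an adjusted p under 0.01 only ABCB6 among the 16 passed (lower, beside 4.71% of all tested genes). Under either centring 2 of the 16 fell, and FECH did not pass (adjusted p = 0.0844 and 0.122). Of all tested genes 5.97% fell relative to their median and 5.43% relative to genes of the same level.

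NADPH-supplying enzymes, which feed the thioredoxin and glutathione reductases, gave 46.7% falls, beside 7.64% of all tested genes. By the authors' test 7 of 15 fell and 0 rose (8 and 1 at an unadjusted p of 0.05), with a median of -0.40. The isocitrate dehydrogenases IDH2 (-0.89 ± 0.16) and IDH1 (-0.56 ± 0.14) and the pentose phosphate enzyme PGD (-0.55 ± 0.15) fell with the smallest adjusted p-values among them in the authors' deposited table. Relative to genes of the same level 3 of 15 fell (IDH1, IDH2 and PGLS, and not PGD, at an adjusted p of 0.0763), beside 5.43% of all tested genes. At an adjusted p under 0.01 4 of 15 fell, beside 4.71% of all tested genes.

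Detoxification and export genes gave 9 falls and 1 rise among 30, 33.3% called, beside 12.9% of all tested genes. Their median was -0.31. The aldehyde reductase AKR7A2 (-0.79 ± 0.15) and the aldehyde dehydrogenases ALDH3B1 (-0.61 ± 0.15) and ALDH3A2 (-0.53 ± 0.14) fell in the authors' deposited table. The exporter ABCC5 rose (0.44 ± 0.16) in the authors' deposited table. AKR1C3 (-0.71 ± 0.20) and AKR1B10 (-0.85 ± 0.22), named after their values were seen, fell in the authors' deposited table and have near-identical copies with which reads may be shared. At an adjusted p under 0.01 there were 6 falls, beside 4.71% of all tested genes. Relative to genes of the same level 7 of 30 fell, beside 5.43%.

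Of 7 further genes known as NRF2 targets 0 passed the authors' test, beside 12.9% of all tested genes. At an unadjusted p of 0.05 in the DESeq2 columns 1 was higher and 2 were lower. CABYR, named after its value was seen, passed when centred on the median of all tested genes (0.68, adjusted p = 0.0339), and not relative to genes of its level (adjusted p = 0.0962). TRIM16 stood at -0.23 ± 0.17 and RIT1 at -0.11 ± 0.16 in the authors' deposited table.

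**Figure D4:**
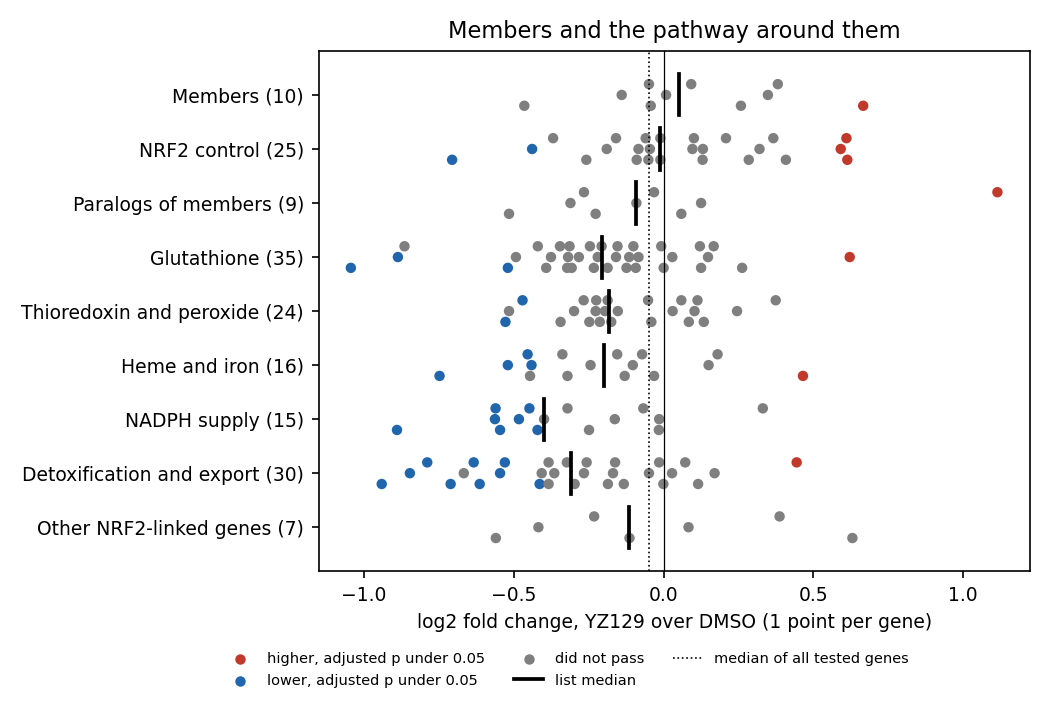
Log2 fold change (x axis) of every tested gene in the member set and the 8 surrounding lists (rows, number tested in brackets), red for rises and blue for falls at an adjusted p under 0.05, grey for the rest; the bar is the list median and the dotted line the median of all tested genes. Most called genes of the NADPH and detoxification lists lie to the left, with list medians of -0.40 and -0.31, while the members' median is 0.05.

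Marker genes were read for the identity of the cells. VIM and CD44 were among the abundant transcripts, with mean levels of 298885 and 134994 in the authors' deposited table. There the astroglial markers GFAP (52.2), S100B (1.12) and SOX2 (0.851) were low or filtered out, and OLIG2 (96.2) and FABP7 (15.5) were low. Other markers of this list stood higher: EGFR (6255), CHI3L1 (4151), SLC1A3 (1891), NES (909) and PDGFRA (261). AQP4 was not analysed here. Of 10 tested astroglial and glioma markers 4 fell (SLC1A3, NES, VIM and CD44) and 1 rose (PDGFRA). Of all tested genes 7.64% fell and 5.24% rose. SLC1A3 fell 2.04-fold (-1.03 ± 0.15) in the authors' deposited table. Relative to genes of the same level VIM, CD44 and PDGFRA did not pass (adjusted p = 0.126, 0.321 and 0.0814). Of 13 tested markers of blood, neuronal, epithelial and endothelial cells, the blood cell gene LCP1 rose (0.69 ± 0.15) and the neuronal genes SNAP25 (-1.43 ± 0.17) and GAP43 (-1.06 ± 0.23) fell in the authors' deposited table. The 4 tested neuronal markers were split, with 2 positive and 2 negative in sign. In the authors' deposited table GAD1 went the other way at 0.47 ± 0.17, short of a call (adjusted p = 0.0511). Under both centrings GAD1, named after its value was seen, was higher (adjusted p = 0.0266 and 0.0335). Of the blood and macrophage markers, PTPRC (mean level 2.28) and CD3E (0.426) were near 0 and CD68 was not, with a mean level of 12821, in the authors' deposited table. The part of these marker changes in the results above was not tested. Values are relative within each library, so less RNA of a gene per cell and fewer cells that carry it cannot be told apart.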

How the data were processed

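Poly(A)-selected RNA was sequenced per the labels' protocols, and samples were grouped by title. Tools listed in the submitters' processing notes, without roles, are Cuffdiff, Cufflinks 2.2.1 and TopHat2 2.0.12, with the build hg19; not given in the sources used here are the read counter, its use of strand and the annotation. Per the file headers the columns are those of a DESeq2 results table: a mean level, which is a normalized count signal, a log2 fold change with SE (also log2), the Wald score, and p-values before and after adjustment. The mean level was deposited as 1 value per gene; for 890 of 890 genes with 2 or 3 reads it equalled a sum of 8 per-read steps (tolerance 1e-07), hence 8 libraries. Genes with 2 reads in 1 library of the comparison had median changes of at most 0.55 in size, so the deposited fold changes were moderated and understate scarce genes. Depth in reads is unknown.

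The authors' adjusted p under 0.05 was the call; it equalled a Benjamini-Hochberg adjustment over 14812 genes, and the other 4937, with mean levels of 9.43 or less, were not tested. Computed here were normal 95% intervals, list counts, centred changes with new adjusted p-values, and motif matches (Python 3.11.15, scipy 1.17.1), tested on simulated data. The smallest change that would pass is 2.73, the smallest called absolute Wald score, times the SE. All members are named; in each list the genes that passed, up to 3 by adjusted p per direction, or the 2 most abundant where none passed, and all relatives of members. Members and lists were chosen with earlier results of these data known. Alternatives were other thresholds, other sets of genes to adjust over, and centring. Reads of overlapping antisense genes cannot be told apart.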

Additional observations from a re-analysis of the deposited data

How the results depend on the processing

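The OSGIN1 rise passed under 6 of 7 alternatives (adjusted p from 0.000159 to 0.00208 over all 7) and missed the requirement of a log2 change of at least 1. The other thresholds reuse the deposited adjusted p of 0.00156, which fixes their outcome, and the rest reuse the same standard error. The alternatives are therefore not separate tests. The count of members that passed, 1 in the report, stayed at 1 at an adjusted p under 0.01, when adjusted over all 19749 genes, and over genes at a mean level of 100 or more. It was 4 at an adjusted p under 0.1 (3 higher, 1 lower, beside 17.4% of all genes), 0 with a log2 change of at least 1 (DESeq2 columns; 4 at an unadjusted p of 0.05, beside 24.9% of all genes), 3 when centred on the median of all tested genes and 4 when centred on genes of the same level. Centring turned the sign of KEAP1 (0.001 and 0.067), TXN (0.008 and 0.114) and NQO1 (0.016, for genes of the same level), none of which passed. The 34 calls among other pathway genes became 20 at an adjusted p under 0.01, beside 7.72% of all tested genes. Under a minimum log2 change of 1 they became 2, beside 2.79%. Both moves follow from the choice of threshold. The calls were between 25 and 42 otherwise. Members with a promoter match were 3 for both forms of the response element and 1 for the MAF-type motif, a search added after seeing the data. Counts among all genes differed by more than 1.5 times from the 1908 as deposited at an adjusted p under 0.01 (1144) and under the minimum log2 change (413). No paired analysis was possible because no values per library were analysed here, so neither a replicate block nor leaving out a library was run. Without counts per library no interval on counts can be given.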

Other observations

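The light chain of the cystine importer, SLC7A11, had a standard error of 0.44 at a mean level of 6263 normalized counts in the authors' deposited table, so that its change was not resolved. Among 7377 tested genes at a mean level of 1000 or more, 1.52% had a standard error as large. FTH1, the ferritin heavy chain, had a mean level of 569143 in the authors' deposited table. Both were singled out after their values were seen.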
